A study of Mus musculus with 4 samples.

Results

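Hox genes encode homeodomain transcription factors that give the cells of the trunk their position along the body axis, and their levels were described here in the injured spinal cord of ApoE3 and ApoE4 mice. The members were chosen by gene symbol, as every gene of the Hox clusters A to D with a paralog number in the expression table. They were also selected on measured values, because a gene had to be listed with FPKM (fragments per kilobase of transcript scaled to the mapped reads of the library) in both genotypes at 7 or 21 days post injury (dpi). In all, 33 Hox genes of 14718 listed genes were found, out of 39 Hox genes in the RefSeq annotation of mouse assembly GRCm38.p6. At 7 dpi 26 Hox genes of 14125 genes were listed, at 21 dpi 29 of 11472, and 22 at both time points.

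The mice were male targeted replacement animals, 3 to 5 months old, in which the coding region of human ApoE3 or ApoE4 stands in place of the mouse Apoe coding region. Every mouse received a 50 kdyne contusion at the ninth thoracic level, and the cord segment with the lesion was taken. The 4 groups were ApoE3 mice at 7 dpi, ApoE4 mice at 7 dpi, ApoE3 mice at 21 dpi and ApoE4 mice at 21 dpi, and no uninjured group was analysed here. By the methods of the study 3 mice were sequenced per group, but the table gives 1 pooled value per gene and group, so differences had no replicate check and no test was run. The replacement is carried in every cell of the body and throughout life, so an effect of the allele before the injury and an effect after it cannot be told apart. Apoe itself was listed at 21 dpi, at 843 FPKM in ApoE3 and 1311 FPKM in ApoE4, and its level does not tell the alleles apart. The paper reports alignment to the mouse reference genome, while the coding region is human, so this value need not be the level of the human transcript. At 21 dpi 10766 of 11472 genes were lower in ApoE3 than in ApoE4, so the order of Apoe was that of most genes.

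In mammals the Hox genes lie in 4 clusters, A to D, and genes in matching places of the clusters form paralog groups 1 to 13. Genes at one end of a cluster are switched on early and reach forward into the hindbrain, and genes at the other end are switched on late and stay near the tail, so that a level of the cord carries its own combination. In the cord, groups 4 to 8 are active at forelimb levels, groups 8 and 9 at thoracic levels, and groups 10 to 13 at lumbar and sacral levels, and much of this code persists in the adult.

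Ratios are given as log2 of FPKM plus 1 in one group over FPKM plus 1 in the other, a scale that understates changes of genes at low levels. The rows of the table name the comparison ApoE3 versus ApoE4, but number the columns with ApoE4 first; the row name was followed, and reading the columns by number would turn every genotype direction given here. At 7 dpi the median log2 ratio of ApoE3 to ApoE4 over all genes was 0.00, and the summed FPKM was 1668994 in ApoE3 and 1669126 in ApoE4. At 21 dpi the median over all genes was -0.42, and the FPKM values summed to 1513618 in ApoE3 but to 2050296 in ApoE4. Values at 21 dpi are therefore also given relative to this median, as centred ratios. A missing gene was not the same as a low gene: of 3288 genes with at least 100 FPKM at 7 dpi, 31.4% were not listed at 21 dpi. Of 2845 genes with at least 100 FPKM at 21 dpi, 1.83% were not listed at 7 dpi, and below 5 FPKM this share was 24.2%. The time points were also tabulated separately, so ratios of 21 to 7 dpi set levels from separate listings side by side.

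The label of spinal cord was checked against other homeobox genes. Of 8 homeobox genes of the dorsal horn, 7 were listed at both time points, led by Pax2 of inhibitory interneurons with 33.1 and 28.7 FPKM at 7 dpi and 55.5 and 65.7 FPKM at 21 dpi in ApoE3 and ApoE4. Of 14 brain homeobox genes 3 were listed, En1, En2 and Gbx2, none above 2.65 FPKM, and Otx1, Otx2, Emx1, Emx2 and Six3 were not listed. Whether these 3 come from cord cells was not tested. The Hox profile itself was that of trunk cord, with Hoxb8 as the most abundant member in each group.

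Groups 1 to 5, whose forward limits lie in the hindbrain and neck, held 13 listed genes. Hoxb3 was the most abundant of them, with 88.6 FPKM in ApoE3 and 78.0 FPKM in ApoE4 at 7 dpi, and 102 and 127 FPKM at 21 dpi. Hoxc4 was at 28.8 and 26.3 FPKM at 7 dpi and at 42.0 and 52.2 FPKM at 21 dpi. Hoxa3, needed for the thymus and the carotid body, was at 20.9 and 20.4 FPKM at 7 dpi and at 28.2 and 30.9 FPKM at 21 dpi. All of these were higher at 21 than at 7 dpi in both genotypes. Hoxb2, a hindbrain gene, was at 12.4 and 10.6 FPKM at 7 dpi and at 19.7 and 22.3 FPKM at 21 dpi. Hoxb5 was at 13.03 and 12.004 FPKM at 7 dpi and at 27.7 and 35.0 FPKM at 21 dpi. Hoxa5, which sets the position and survival of phrenic motor neurons together with Hoxc5, was at 9.86 and 10.5 FPKM at 7 dpi and at 13.6 and 21.6 FPKM at 21 dpi. Hoxb5 showed the larger ratio of 21 to 7 dpi of these, 1.03 in ApoE3 and 1.47 in ApoE4 on the log2 scale.

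The other members of groups 1 to 5 were below 10 FPKM. Hoxd4 was at 4.95 and 5.15 FPKM at 7 dpi and at 6.45 and 8.02 FPKM at 21 dpi. Hoxa4 was at 3.58 and 3.22 FPKM at 7 dpi and at 4.51 and 7.76 FPKM at 21 dpi. Hoxb4 was at 2.89 and 3.51 FPKM at 7 dpi and at 3.64 and 4.22 FPKM at 21 dpi. Each of these group 4 genes was again higher at 21 dpi before centring. Centred on all genes, the log2 ratio of 21 to 7 dpi in ApoE4 was -0.32 for Hoxb4 and 0.02 for Hoxd4. Hoxd3 was at 1.49 FPKM in ApoE3 and 2.58 FPKM in ApoE4 at 7 dpi and at 3.59 and 3.65 FPKM at 21 dpi. Hoxc5 was at 2.49 and 2.30 FPKM at 7 dpi and at 1.99 and 3.80 FPKM at 21 dpi. Hoxa2, which patterns the second branchial arch, was at 2.19 and 2.17 FPKM at 7 dpi and at 1.83 and 2.93 FPKM at 21 dpi. Hoxc5 and Hoxa2 were thus lower at 21 than at 7 dpi in ApoE3 and higher in ApoE4 before centring. Centred on all genes, the log2 ratios of 21 to 7 dpi in ApoE3 and ApoE4 were -0.31 and 0.02 for Hoxc5. For Hoxa2 they were -0.26 and -0.22, lower in both. Hoxd1, the only listed gene of group 1 and one that shapes pain-sensing neurons in mouse, was listed at 21 dpi only, with 0.892 FPKM in ApoE3 and 1.49 FPKM in ApoE4.

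Groups 6 to 9 carry the code of the brachial and thoracic cord, and the lesion was made within their range. Hoxb8, whose loss in mouse leads to excessive grooming and altered pain sensing, was at 241 FPKM in ApoE3 and 226 FPKM in ApoE4 at 7 dpi, and at 559.8 and 692 FPKM at 21 dpi. It alone made up 31.4% of the summed Hox FPKM of ApoE3 and 30.8% of that of ApoE4 at 7 dpi, and 45.9% and 44.3% at 21 dpi. Hoxd8 was at 46.3 and 49.0 FPKM at 7 dpi and at 70.2 and 109.8 FPKM at 21 dpi. Hoxc8, a gene of brachial motor pools, was at 56.8 and 49.4 FPKM at 7 dpi and was not listed at 21 dpi. Hoxc8 was the second most abundant Hox gene of ApoE3 within this range at 7 dpi, after Hoxb8, and shows that a listing at 7 dpi only does not mark a gene near 0.

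Hoxc6, which takes part in setting up the motor neurons of the forelimb, was at 49.7 and 55.6 FPKM at 7 dpi and at 39.2 and 61.0 FPKM at 21 dpi. Hoxb6 was at 40.0 and 40.3 FPKM at 7 dpi and at 92.0 and 121 FPKM at 21 dpi. Hoxa6 was at 4.26 and 5.07 FPKM at 7 dpi and at 3.47 and 4.01 FPKM at 21 dpi. The 3 paralogs of group 6 thus went different ways. Before centring, Hoxa6 was the only 1 of the 22 Hox genes listed at both time points that was lower at 21 dpi in both genotypes. Centred on all genes, Hoxc6, with -0.42 and -0.40, and Hoxa2 were lower in both as well. Hoxb7 was at 25.3 and 23.6 FPKM at 7 dpi and at 57.1 and 73.2 FPKM at 21 dpi. Hoxa7 was at 32.8 and 28.9 FPKM at 7 dpi and was not listed at 21 dpi.

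Group 9 ends the thoracic code. Hoxa9 was at 31.4 and 36.8 FPKM at 7 dpi and at 62.2 and 79.0 FPKM at 21 dpi. Hoxb9 was at 25.3 and 21.6 FPKM at 7 dpi and was not listed at 21 dpi. Hoxc9, which holds thoracic motor neurons apart from those of the limbs, was at 4.86 and 5.11 FPKM at 7 dpi and at 7.48 and 10.8 FPKM at 21 dpi. Hoxc9 was thus well below its paralogs Hoxa9 and Hoxb9 in each group in which they were listed. Hoxd9 was at 3.78 and 3.48 FPKM at 7 dpi and at 12.6 and 18.5 FPKM at 21 dpi.

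**Figure D1:**
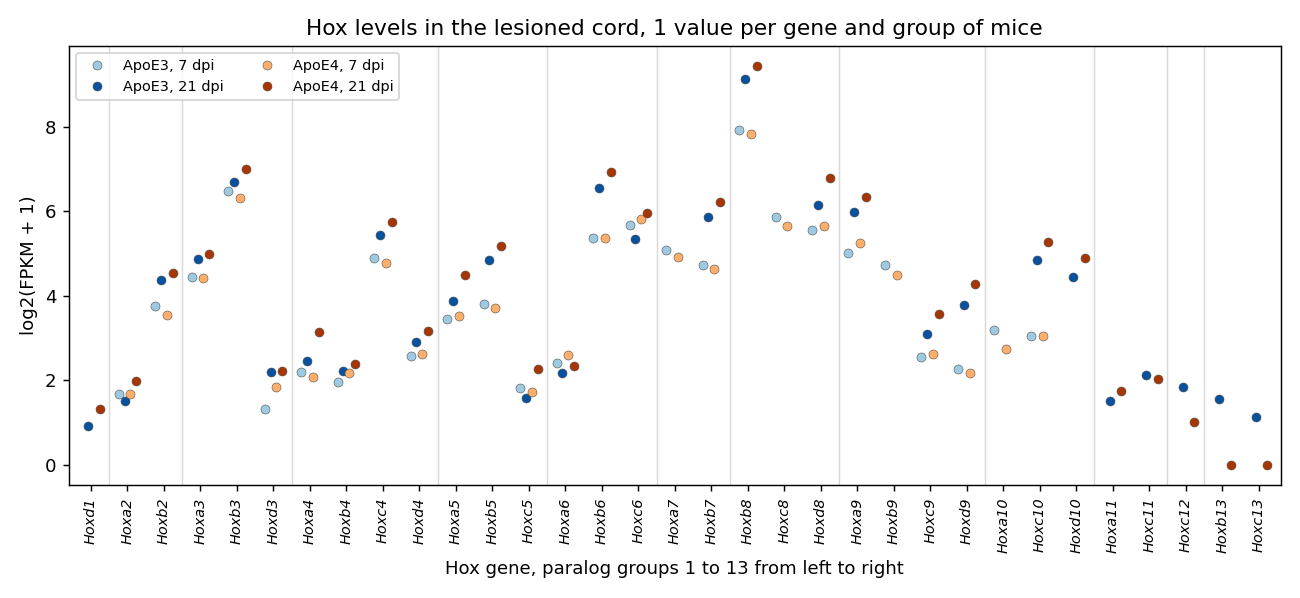
Level of each listed Hox gene as log2 of FPKM plus 1 (vertical axis), ordered by paralog group (horizontal axis, grey lines between groups), with 1 point per gene and group of mice. Hoxb8 stands above all others in each group, and Hoxb13 and Hoxc13 at the right end lie at 0 in ApoE4 at 21 dpi; a gene without points at a time point was not listed there.

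Groups 10 to 13 specify lumbar, sacral and tail levels. Hoxc10, which acts with Hoxa10 and Hoxd10 in lumbar motor neurons, was at 7.19 FPKM in ApoE3 and 7.27 FPKM in ApoE4 at 7 dpi and at 27.7 and 37.6 FPKM at 21 dpi. Hoxa10 was at 8.07 and 5.68 FPKM at 7 dpi and was not listed at 21 dpi. Hoxd10 was listed at 21 dpi only, at 20.8 FPKM in ApoE3 and 28.7 FPKM in ApoE4. Group 10 was therefore present at both time points, with Hoxa10 listed beside Hoxc10 at 7 dpi and Hoxd10 beside it at 21 dpi. The genes of groups 11 to 13 were listed at 21 dpi only. Hoxa11, a gene of kidney, limb and uterus, was at 1.86 and 2.34 FPKM in ApoE3 and ApoE4, and Hoxc11 at 3.34 and 3.08 FPKM. Hoxc12 was at 2.58 FPKM in ApoE3 and 1.01 FPKM in ApoE4. Hoxb13, a gene of the tail bud and the prostate, was at 1.92 FPKM in ApoE3 and was listed at 0 in ApoE4. Hoxc13, a gene of hair follicles and nails, was at 1.17 FPKM in ApoE3 and was listed at 0 in ApoE4. A fold against a value of 0 is not given. Over all genes of that time point, 41 were listed at 0 in ApoE3 and 18 in ApoE4. The 6 Hox genes with no row included Hoxd11, Hoxd12, Hoxa13 and Hoxd13 of the caudal groups.

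Summed by cluster, the Hox genes of cluster B were the largest share in each group. Cluster B held 58.4% of the sum of ApoE3 and 56.6% of that of ApoE4 at 7 dpi, and 70.8% and 68.8% at 21 dpi. Hoxb9 was missing from its later sum, and Hoxb13 entered only there. Cluster C held 19.5% and 19.9% at 7 dpi and 10.3% and 10.8% at 21 dpi, with Hoxc8 missing from the later sum. Cluster A held 14.7% and 15.4% at 7 dpi and 9.49% and 9.50% at 21 dpi, with Hoxa7 and Hoxa10 missing from the later sum. Cluster D held 7.36% and 8.20% at 7 dpi and 9.40% and 10.9% at 21 dpi, with Hoxd10 and Hoxd1 in the later sum only. Over the genes listed at both time points cluster B held 65.6% and 62.6% at 7 dpi and 72.6% and 70.4% at 21 dpi. Over the same genes cluster C held 14.4% and 15.4% at 7 dpi and 9.97% and 10.8% at 21 dpi. Cluster A held 11.2% and 12.4% and then 9.59% and 9.58%, and cluster D held 8.76% and 9.57% and then 7.83% and 9.17%.

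Along the axis, groups 6 to 9 held most of the summed Hox FPKM. Their share was 73.1% in ApoE3 and 74.2% in ApoE4 at 7 dpi, and 74.2% and 74.9% at 21 dpi. Groups 1 to 5 held 24.9% and 24.1% at 7 dpi and 21.0% and 20.5% at 21 dpi. Groups 10 to 13 held 1.99% and 1.76% at 7 dpi and 4.87% and 4.65% at 21 dpi. Over the 22 genes listed at both time points, where Hoxc10 is the only member of groups 10 to 13, this last share was 1.12% and 1.16% at 7 dpi and 2.33% and 2.46% at 21 dpi. The share of the caudal groups was thus larger at 21 dpi with either set of genes, and the genotypes were close to each other at each time point. The FPKM-weighted mean paralog group was 6.66 in ApoE3 and 6.68 in ApoE4 at 7 dpi, and 6.96 in both at 21 dpi. Without Hoxb8, the most abundant member, it was 6.05 and 6.09 at 7 dpi and 6.08 and 6.14 at 21 dpi. Over the 22 genes listed at both time points it was 6.39 and 6.45 at 7 dpi and 6.87 and 6.89 at 21 dpi, and without Hoxb8 5.43 and 5.58 and then 5.86 and 5.98, so its shift with time without Hoxb8 depended on the genes that enter.

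**Figure D2:**
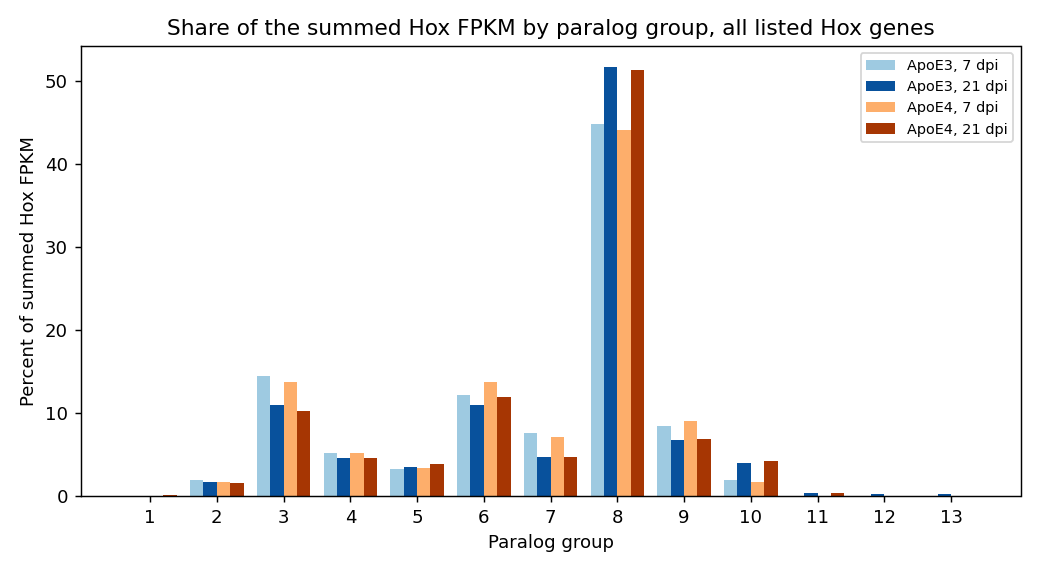
Percent of the summed Hox FPKM (vertical axis) in each paralog group (horizontal axis), with 1 bar per group of mice, over all Hox genes listed at that time point. Group 8 is the tallest in each group of mice and group 10 is taller at 21 than at 7 dpi; no bar means that no gene was listed or that the share was too small to see, and Hoxa7, Hoxc8, Hoxb9 and Hoxa10 enter at 7 dpi only.

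Between the time points, the Hox genes were higher at 21 dpi by more than the median of all genes. In ApoE3 the median log2 ratio of 21 to 7 dpi was 0.53 over the 22 Hox genes and 0.09 over all 10879 genes listed at both time points. In ApoE4 it was 0.97 over the Hox genes and 0.53 over all genes. Centred on all genes, the Hox medians were 0.44 in both genotypes. The 22 Hox genes summed to 645 FPKM in ApoE3 and 629 FPKM in ApoE4 at 7 dpi and to 1187 and 1527 FPKM at 21 dpi. This was 0.0539% and 0.0524% of the summed FPKM of genes listed at both time points at 7 dpi, and 0.0820% and 0.0781% at 21 dpi.

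In ApoE3, 14 of the 22 Hox genes were at least 1.3-fold higher at 21 dpi, against 31.3% of all genes, and 0 were at least 1.3-fold lower, against 23.6% of all genes. In ApoE4, 17 were at least 1.3-fold higher, against 59.0% of all genes, and 0 were at least 1.3-fold lower, against 10.9%. Centred, 12 Hox genes were higher in ApoE3, against 26.6% of all genes, and 1, Hoxc6, was lower, against 27.7%. In ApoE4 the centred counts were 13 higher, against 26.1%, and 2 lower, Hoxa6 and Hoxc6, against 28.6%. Without centring, 18 of the 22 genes were above 0 in ApoE3 and 21 in ApoE4, beside 6084 and 8516 of all 10879 genes. The 4 groups here are those of the genotype comparisons, so the time and genotype ratios share their values.

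The ratio of 21 to 7 dpi was larger in groups 6 to 9 than in groups 1 to 5 by the median, with an uneven order within them. Over the 12 genes of groups 1 to 5 its median was 0.37 in ApoE3 and 0.63 in ApoE4, and over the 9 genes of groups 6 to 9 it was 0.96 and 1.15. Hoxc10, the only gene of groups 10 to 13 listed at both time points, had log2 ratios of 1.81 and 2.22, a 3.50-fold and a 4.66-fold difference. Hoxd9 followed with 1.51 and 2.12, or 2.85-fold and 4.35-fold. These genes had the largest ratios of the 22 in each genotype. Hoxb8 had 1.21 and 1.61, Hoxb6 had 1.18 and 1.57, and Hoxb7 had 1.14 and 1.59. The 4 adjoining genes from Hoxb5 to Hoxb8 thus lay close together, whereas Hoxb4 had 0.26 and 0.21 and Hoxb3 had 0.20 and 0.69. Hoxb2 lay between these, with 0.62 in ApoE3 and 0.997 in ApoE4. Within cluster C the order was less regular, with 0.53 and 0.97 for Hoxc4, -0.33 and 0.13 for Hoxc6, and 0.53 and 0.95 for Hoxc9.

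Across the 22 genes, the log2 ratio of 21 to 7 dpi and the paralog number had a Pearson r of 0.56 and a Spearman rho of 0.50 in ApoE3, and of 0.59 and 0.55 in ApoE4. Without Hoxc10 the values over 21 genes were 0.45 and 0.43 in ApoE3, and 0.50 and 0.48 in ApoE4. These are descriptions across genes of the same groups of mice, with 1 pooled value per gene and group, and genes of 1 cluster are not independent. Summed within paralog groups over the same genes, group 3 had 111 and 101 FPKM at 7 dpi and 133 and 161 FPKM at 21 dpi, a 1.20-fold and a 1.60-fold difference. Group 8 had 287 and 275 FPKM at 7 dpi and 630.04 and 802 FPKM at 21 dpi, a 2.19-fold and a 2.92-fold difference. The folds in ApoE3 and ApoE4 were 1.47 and 1.96 in group 2, 1.41 and 1.89 in group 4, 1.70 and 2.44 in group 5, 1.43 and 1.85 in group 6, 2.26 and 3.10 in group 7, and 2.06 and 2.39 in group 9, so the order was not steady. Group 10, represented by Hoxc10, had 3.85-fold and 5.16-fold more FPKM at 21 than at 7 dpi when no 1 was added.

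**Figure D3:**
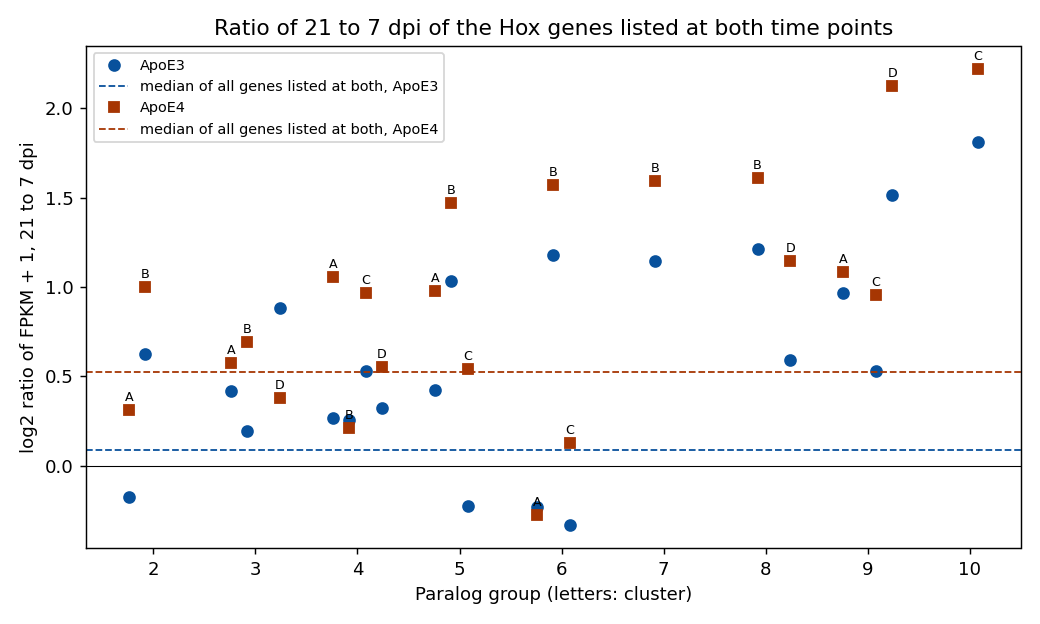
Log2 ratio of 21 to 7 dpi (vertical axis) against paralog group (horizontal axis) for the 22 Hox genes listed at both time points, with ApoE3 as circles and ApoE4 as squares and the cluster letter above each ApoE4 point. Dashed lines are the medians of all genes, 0.09 in ApoE3 and 0.53 in ApoE4, and the highest points are Hoxd9 and Hoxc10.

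Between genotypes at 7 dpi the Hox genes were close to all genes. The median log2 ratio of ApoE3 to ApoE4 was 0.06 over 26 Hox genes, with 15 above 0 and 11 below 0, beside 7126 and 6999 of all 14125 genes. Of the 26, 1 was at least 1.3-fold higher in ApoE3, against 3.78% of all genes, and 1 was at least 1.3-fold lower, against 4.76%. The higher gene was Hoxa10, with a log2 ratio of 0.44, and the lower gene was Hoxd3, with -0.52, both at levels below 10 FPKM. Hoxb8 had a log2 ratio of 0.09. The medians of clusters A, B, C and D were 0.02, 0.10, 0.03 and -0.07.

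At 21 dpi most Hox genes followed the shift of the whole table toward ApoE4. The median log2 ratio was -0.33 over 29 Hox genes, of which 25 were below 0, beside -0.42 over all genes, of which 10766 of 11472 were below 0. Of the 29, 12 were at least 1.3-fold lower in ApoE3, against 58.9% of all genes, and 3 were at least 1.3-fold higher, against 2.01%. Centred on all genes, the Hox median was 0.10 above them, 5 Hox genes were at least 1.3-fold higher in ApoE3, against 7.46%, and 0 were at least 1.3-fold lower, against 8.06%. These 5 were Hoxd3, with a centred log2 ratio of 0.40, Hoxc11, with 0.51, Hoxc12, with 1.26, and Hoxb13 and Hoxc13, which were at 0 in ApoE4. Of these 5, 4 belong to groups 11 to 13, and all 5 were below 4 FPKM in each group. Hoxb13 and Hoxc13 were above 0 in ApoE3 only, so their direction was fixed by their being listed. With a minimum mean FPKM of 1, the uncentred count at least 1.3-fold higher in ApoE3 was 1 instead of 3.

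By axial level, the median log2 ratio at 21 dpi was -0.31 in groups 1 to 5 and -0.40 in groups 6 to 9, or 0.11 and 0.03 centred. No median is given for the 7 genes of groups 10 to 13. Hoxb13 and Hoxc13 among them were at 0 in ApoE4, so their direction was fixed by their being listed. Hoxc10 had a log2 ratio of -0.43 and Hoxd10 of -0.45, close to the -0.42 of the median of all genes. Hoxa11 had -0.22, or 0.20 centred, the middle value of these groups once Hoxb13 and Hoxc13 are left out. Hoxc11 had 0.09 and Hoxc12 had 0.83. The lowest ratios were -0.68 for Hoxc5, -0.67 for Hoxa4, -0.64 for Hoxd8, -0.63 for Hoxa5 and -0.62 for Hoxc6, or -0.26 to -0.20 once centred. Hoxb8 had a log2 ratio of -0.31, or 0.12 centred.

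**Figure D4:**
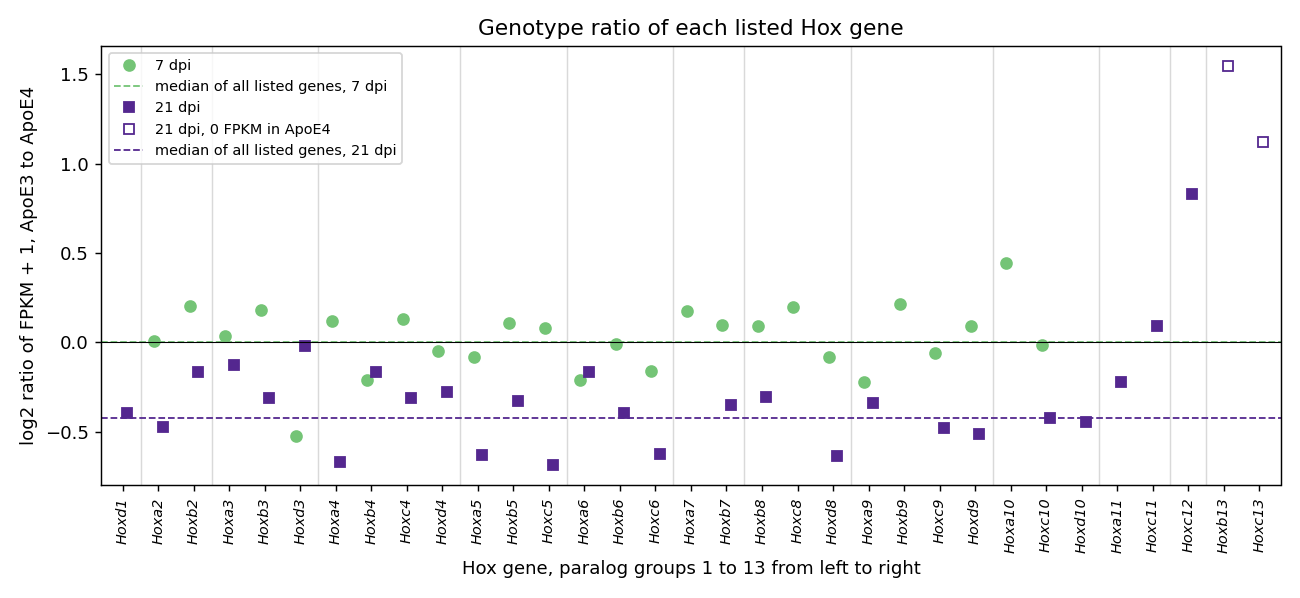
Log2 ratio of ApoE3 to ApoE4 (vertical axis) for each listed Hox gene, ordered by paralog group (horizontal axis), with 7 dpi as circles and 21 dpi as squares. Dashed lines are the medians of all listed genes, 0.00 at 7 dpi and -0.42 at 21 dpi. Among the filled 21 dpi squares Hoxc12 is the highest; open squares are Hoxb13 and Hoxc13, whose ratio depends on the added 1 because ApoE4 was at 0.

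The sequences before the starts of 3 Hox genes were read. RefSeq promoters of GRCm38.p6 matched 17 of the 33 listed genes, with 18 start sites. The 250 bases before the start are shown for Hoxb8, the most abundant member, and for the neighbours Hoxd9 and Hoxd10. All lie on the plus strand, at chr11:96281655-96281904 for Hoxb8, chr2:74697513-74697762 for Hoxd9 and chr2:74691641-74691890 for Hoxd10, and each window ends at the start site of the gene. Capitals mark TTTAT, the core bound by Cdx and caudal Hox proteins, and TGATNNAT, a joint site of Pbx and Hox proteins, searched on both strands.
Hoxb8: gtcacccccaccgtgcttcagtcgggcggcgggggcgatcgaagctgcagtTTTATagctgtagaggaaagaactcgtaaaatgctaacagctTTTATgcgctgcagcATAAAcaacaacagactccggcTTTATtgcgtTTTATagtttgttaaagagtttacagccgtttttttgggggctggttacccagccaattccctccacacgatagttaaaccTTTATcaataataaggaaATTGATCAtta
Hoxd9: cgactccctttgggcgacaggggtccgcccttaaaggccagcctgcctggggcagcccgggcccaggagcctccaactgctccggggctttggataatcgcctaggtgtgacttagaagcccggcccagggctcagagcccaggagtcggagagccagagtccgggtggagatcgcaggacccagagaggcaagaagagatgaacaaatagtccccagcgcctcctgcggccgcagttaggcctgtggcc
Hoxd10: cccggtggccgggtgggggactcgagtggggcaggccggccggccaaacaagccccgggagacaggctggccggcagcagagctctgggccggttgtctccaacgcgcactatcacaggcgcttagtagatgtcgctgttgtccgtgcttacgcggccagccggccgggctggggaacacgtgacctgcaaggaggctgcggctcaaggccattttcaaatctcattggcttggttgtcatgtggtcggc
The Hoxb8 window held 6 matches of TTTAT and 1 of TGATNNAT, and the windows of Hoxd9 and Hoxd10 held neither. TTTAT was present in 37.3% of 32851 promoter windows of the same length, and in 7 of the 18 windows of listed Hox genes. TGATNNAT was present in 7.68% of all windows and in 2 of the 18. The Hoxb8 window had 44.4% G and C, against 65.2% in Hoxd9 and 65.6% in Hoxd10, beside a median of 52.4% over all windows. A match of letters shows neither binding nor use of the site.

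Hox proteins bind DNA together with the TALE homeodomain cofactors of the Pbx, Meis and Pknox families. All 9 cofactor genes were listed at 7 dpi and 7 at 21 dpi, with centred median log2 ratios of ApoE3 to ApoE4 of 0.02 and 0.10. Meis2 was the most abundant, at 496 FPKM in ApoE3 and 369.5 FPKM in ApoE4 at 7 dpi, followed by Meis3 at 204 and 199 FPKM, and neither was listed at 21 dpi. Pbx4 was at 28.4 and 41.5 FPKM at 7 dpi and at 92.0 and 79.3 FPKM at 21 dpi. Pknox2 was at 73.2 and 55.2 FPKM at 7 dpi and at 83.6 and 107.8 FPKM at 21 dpi. The largest ratio of 21 to 7 dpi of the cofactors was 1.66 in ApoE3, for Pbx4, and 0.95 in ApoE4, for Pknox2, beside 0.92 for Pbx4, while the centred median of the list was 0.10 and -0.14.

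Polycomb proteins keep Hox genes silent outside their axial range, and Trithorax proteins keep them active within it. All 19 Polycomb genes were listed at 7 dpi and 12 at 21 dpi. Their centred medians were -0.01 for ApoE3 to ApoE4 at 7 dpi, -0.01 at 21 dpi, and -0.19 and -0.22 for 21 to 7 dpi in ApoE3 and ApoE4. Ezh2, the methyltransferase that marks silent Hox chromatin, was at 198 and 209.8 FPKM at 7 dpi and at 99.8 and 139.9 FPKM at 21 dpi. Cbx6, a chromodomain protein of Polycomb complexes, was at 50.9 and 48.8 FPKM at 7 dpi and at 73.2 and 98.9 FPKM at 21 dpi. Ezh2 was thus lower and Cbx6 higher at 21 dpi in both genotypes. Phc2, with 415 and 435 FPKM, and Phc1, with 191 and 181 FPKM, were listed at 7 dpi only. Of 9 Trithorax genes 8 were listed at 7 dpi and 6 at 21 dpi, with centred medians of -0.08 and 0.16 for ApoE3 to ApoE4 and of 0.05 and -0.30 for 21 to 7 dpi. Rbbp5 was at 108 and 114 FPKM at 7 dpi and at 135 and 191 FPKM at 21 dpi, and Men1 was at 86.9 and 93.0 FPKM and then at 118 and 150.2 FPKM. Dpy30, at 119 and 126 FPKM, was listed at 7 dpi only.

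Of 13 genes that set up the caudal axis in the embryo, 6 were listed at 7 dpi and 4 at 21 dpi. Cdx1, Cdx2, Cdx4, Fgf8, Wnt3a, Tbxt and Cyp26a1 were not listed. The receptors of retinoic acid were the most abundant, with Rara at 59.3 and 70.5 FPKM and Rarg at 33.1 and 36.7 FPKM at 7 dpi. Rarb was at 11.7 and 13.8 FPKM at 7 dpi and at 9.70 and 15.0 FPKM at 21 dpi. Aldh1a2, which makes retinoic acid, was at 1.25 and 1.84 FPKM at 7 dpi and at 2.14 and 1.14 FPKM at 21 dpi. The centred medians of the list were -0.19 and 0.31 for ApoE3 to ApoE4 at 7 and 21 dpi, and -0.09 and -0.56 for 21 to 7 dpi in ApoE3 and ApoE4.

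Of 19 noncoding RNAs of the clusters, 4 were listed at 7 dpi and 7 at 21 dpi, none of them a microRNA. Hotairm1, from the early end of cluster A, was at 2.88 and 3.39 FPKM at 7 dpi and at 7.93 and 9.02 FPKM at 21 dpi; Hotairm2 carried identical values, so both rows are 1 measurement. Hoxb5os, on the strand opposite to the Hoxb5 region, was at 1.81 and 1.26 FPKM at 7 dpi and at 6.04 and 2.90 FPKM at 21 dpi. Hoxb5os and the coding gene Hoxb5 thus had opposite genotype orders at 21 dpi before centring, with log2 ratios of 0.85 and -0.33. Centred on all genes the ratios were 1.28 and 0.10, of the same sign. Hotair, of the Hoxc11 and Hoxc12 interval, was listed at 21 dpi only, at 0.96 FPKM in ApoE3 and 0.49 FPKM in ApoE4. The centred medians of the list with both rows were -0.07 and 0.26 for ApoE3 to ApoE4, and 1.11 and 0.46 for 21 to 7 dpi in ApoE3 and ApoE4. With this measurement taken once, over 3 genes at 7 dpi and 6 at 21 dpi, they were 0.04 and 0.20, and 1.11 and 0.26.

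The genes that flank the clusters were followed as neighbours. Of 22, 16 were listed at 7 dpi and 13 at 21 dpi, and Evx1 and Evx2, which adjoin Hoxa13 and Hoxd13, were not listed. Their centred medians were 0.02 and -0.12 for ApoE3 to ApoE4, and 0.10 and 0.11 for 21 to 7 dpi, beside 0.44 for the Hox genes in each genotype. Atp5g1, a subunit of mitochondrial ATP synthase near cluster B, was at 484 and 464 FPKM at 7 dpi and at 1054 and 1310 FPKM at 21 dpi. Snf8, from the same flank, was at 69.3 and 70.9 FPKM at 7 dpi and at 140.04 and 186 FPKM at 21 dpi. These had ratios of 21 to 7 dpi of 1.12 and 1.49 for Atp5g1 and of 1.004 and 1.38 for Snf8, while Ube2z, of the same flank, had 0.13 and 0.51. Atp5g3, near cluster D, was at 1396 and 1319.8 FPKM and was listed at 7 dpi only.

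All 16 neuronal genes were listed at 7 dpi and 14 at 21 dpi, summing to 11193 and 8789 FPKM at 7 dpi and to 12559 and 19171 FPKM at 21 dpi in ApoE3 and ApoE4. Their centred median ratio of 21 to 7 dpi was 0.60 in ApoE3 and 0.92 in ApoE4. After centring 8 and 12 of 14 were at least 1.3-fold higher at 21 dpi, against 26.6% and 26.1% of all genes, and 2 and 1 were lower, against 27.7% and 28.6%. The centred median of ApoE3 to ApoE4 was 0.26 at 7 dpi and -0.08 at 21 dpi. Snap25, of the synaptic fusion machinery, was the most abundant at 21 dpi, at 3366 and 2545 FPKM at 7 dpi and at 5336 and 7812 FPKM at 21 dpi. Map2 was at 4119 and 3184 FPKM and then at 2879 and 4989.9 FPKM, Stmn2 at 167 and 147 FPKM and then at 474 and 652 FPKM, and Nefm at 339 and 286 FPKM and then at 609 and 1149 FPKM. The dorsal horn homeobox genes had centred medians of 0.44 and 0.64 for 21 to 7 dpi and of 0.11 and 0.18 for ApoE3 to ApoE4. Among them Tlx3 was at 1.52 and 1.40 FPKM at 7 dpi and at 6.96 and 6.63 FPKM at 21 dpi, Lbx1 at 3.55 and 3.31 FPKM and then at 7.86 and 10.5 FPKM, and Lmx1b at 11.6 and 10.6 FPKM and then at 15.8 and 21.1 FPKM. In whole tissue, more cells of a type and more RNA per cell cannot be told apart, and the part of neurons in the Hox ratios was not tested.

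The motor column list holds genes through which Hox proteins sort motor neurons, and also genes of acetylcholine handling such as Chat and Slc18a3. Of its 13 genes 10 were listed at each time point. Their centred medians were 0.17 and 0.16 for ApoE3 to ApoE4 and 0.39 and 0.27 for 21 to 7 dpi. Foxp1, the Hox cofactor of limb motor neurons, was at 461 and 483 FPKM, and Etv4, of motor pools, at 58.5 and 73.6 FPKM, both at 7 dpi only. Slc18a3, which loads acetylcholine into vesicles, was at 17.2 and 13.7 FPKM at 7 dpi and at 28.3 and 54.4 FPKM at 21 dpi, and Chat, which makes acetylcholine, was at 8.08 and 5.45 FPKM and then at 8.16 and 13.4 FPKM. The listed brain homeobox genes had centred medians of -0.22 and 0.24 for ApoE3 to ApoE4 and of 0.29 and -0.24 for 21 to 7 dpi. Gbx2 was at 1.74 and 2.496 FPKM at 7 dpi and at 2.48 and 2.65 FPKM at 21 dpi, En2 at 0.763 and 0.876 FPKM and then at 1.36 and 1.67 FPKM, and En1 at 0.878 and 1.66 FPKM at 21 dpi only.

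At 21 dpi most markers of nerve roots and ganglia were higher in ApoE3. Of 16 sensory ganglion genes 13 were listed at 21 dpi, with a centred median of 1.81, and after centring 10 were at least 1.3-fold higher in ApoE3, against 7.46% of all genes, and 1 was lower, against 8.06%. Scn10a, a sodium channel of pain-sensing neurons, was at 20.1 FPKM in ApoE3 and 0.153 FPKM in ApoE4, and Avil, of ganglion neurons, at 39.1 and 1.20 FPKM. The list summed to 986 FPKM in ApoE3 and 1143 FPKM in ApoE4, most of it Calca at 702 and 829.5 FPKM, and Trpv1 and Mrgprd were listed at 0 in ApoE4. At 7 dpi 7 of these genes were listed, with a centred median of 0.29, Calca at 377 and 269 FPKM and Prph at 106 and 94.1 FPKM. Over the 6 genes listed at both time points the centred median of 21 to 7 dpi was 0.87 in ApoE3 and 0.40 in ApoE4. Isl1 of this list is also in the motor column list.

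Of 14 Schwann cell genes 10 were listed at 7 dpi, with a centred median of -0.06, and 13 at 21 dpi, with a centred median of 1.41, where after centring 9 were at least 1.3-fold higher in ApoE3, against 7.46% of all genes, and 0 were lower, against 8.06%. Cldn19 was at 18.6 FPKM in ApoE3 and 0.188 FPKM in ApoE4 at 21 dpi, and Pmp22, a protein of peripheral myelin, was at 693 and 671 FPKM at 7 dpi and at 1970 and 992 FPKM at 21 dpi. Without Mbp, which oligodendrocytes also make, the list summed to 961 and 944 FPKM at 7 dpi and to 3322 and 1444 FPKM at 21 dpi. The centred median of 21 to 7 dpi over 10 genes of the list was 0.84 in ApoE3 and -0.26 in ApoE4. The part of ganglion and root tissue in the levels of Hoxc12, Hoxb13 and Hoxc13 was not tested.

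Markers of skeletal muscle, liver and bone had centred medians below 0 at 21 dpi. Of 16 skeletal muscle genes 10 were listed at 21 dpi, with a centred median of -2.66, and after centring 10 were at least 1.3-fold lower in ApoE3, against 8.06% of all genes; at 7 dpi 10 were listed with a centred median of 0.23. They summed to 36.0 FPKM in ApoE3 and 741 FPKM in ApoE4 at 21 dpi, led by Tnnt3 with 22.5 and 515 FPKM, and Myl1 was at 1.98 and 70.9 FPKM. At 7 dpi they summed to 170.3 and 136 FPKM, led by Pvalb with 98.3 and 86.4 FPKM, which was not listed at 21 dpi. The sums thus cover different genes. Over the 8 muscle genes listed at both time points they were 68.0 and 45.1 FPKM at 7 dpi and 35.6 and 719 FPKM at 21 dpi. The centred median of 21 to 7 dpi over these 8 genes was -0.75 in ApoE3 and 2.72 in ApoE4. That of 4 bone and cartilage genes was -0.20 and -0.05. Among the muscle genes, Myh4 was listed at 0 in ApoE3 at 21 dpi, so its direction was fixed by its being listed. Of 12 liver genes 9 were listed at 21 dpi with a centred median of -2.12, summing to 11.4 and 138 FPKM. Apoa2 was at 5.38 and 59.2 FPKM and Ahsg at 0.182 and 15.8 FPKM. All 9 were listed at 21 dpi only, at 0.012 to 5.38 FPKM in ApoE3. They may thus have been listed through ApoE4, which would fix their direction. At 7 dpi only Trf, which oligodendrocytes also make, was listed, at 1676 and 1647 FPKM. Of 12 bone and cartilage genes 6 were listed at each time point, with centred medians of -0.14 and -0.47, summing to 48.8 and 59.2 FPKM at 7 dpi and to 31.0 and 52.3 FPKM at 21 dpi. Among them Sp7 was at 3.69 and 8.58 FPKM and Bglap at 0.740 and 3.59 FPKM at 21 dpi, while Sox9 was at 15.8 and 17.9 FPKM and Runx2 at 11.5 and 17.9 FPKM at 7 dpi. These tissues hold Hox genes of their own level, and their part in the Hox ratios was not tested.

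The other cell types of the lesion were read for the same groups. Fibroblast and meningeal genes, 12 listed at 7 dpi and 9 at 21 dpi, had centred medians of -0.33 and 0.67 for ApoE3 to ApoE4 and of -1.10 and -3.00 for 21 to 7 dpi; Col1a1 was at 212 and 270 FPKM at 7 dpi and at 2.44 and 2.27 FPKM at 21 dpi, and Col3a1 at 178 and 243 FPKM and then at 2.31 and 1.79 FPKM. After centring 6 of these genes were at least 1.3-fold higher in ApoE3 at 21 dpi, against 7.46% of all genes, and 0 were lower, against 8.06%. Dcn was at 45.7 and 56.6 FPKM and then at 61.9 and 9.37 FPKM, and Mfap5 at 9.06 and 14.7 FPKM and then at 19.2 and 1.97 FPKM, so both were higher at 21 than at 7 dpi in ApoE3 and lower in ApoE4. Microglia and macrophage genes, 9 and 7 listed of 11, had -0.29 and -0.49, and -1.50 and -1.19; Lyz2 was at 4522 and 6076 FPKM and then at 212 and 425.5 FPKM, Itgam at 48.9 and 58.3 FPKM and then at 14.2 and 24.96 FPKM, and Cd68 at 1309 and 1696 FPKM at 7 dpi only. Astrocyte genes, 8 and 9 listed of 9, had 0.08 and -0.35, and -0.51 and -0.18, with Gfap at 12395 and 12386 FPKM and then at 8201 and 15313 FPKM. Aqp4 was at 2689 and 2415 FPKM and then at 833 and 1472 FPKM, S100b at 430.4 and 453 FPKM and then at 720.3 and 1228 FPKM, and Aldoc at 3014 and 4216 FPKM at 21 dpi only. Oligodendrocyte genes, 7 and 9 listed of 10, had -0.05 and -0.12, and 0.13 and 0.30, with Mbp at 120571 and 127575 FPKM and then at 201348 and 278678 FPKM. Opalin was at 18.3 and 14.8 FPKM and then at 31.3 and 47.6 FPKM. Endothelial genes, 8 and 6 listed of 8, had 0.04 and 0.09, and 0.07 and 0.05, with Slco1a4 at 162 and 139.6 FPKM and then at 218 and 272 FPKM, Cdh5 at 20.6 and 21.6 FPKM and then at 12.8 and 12.2 FPKM, and Ly6c1 at 440.3 and 405 FPKM at 7 dpi only.

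**Figure D5:**
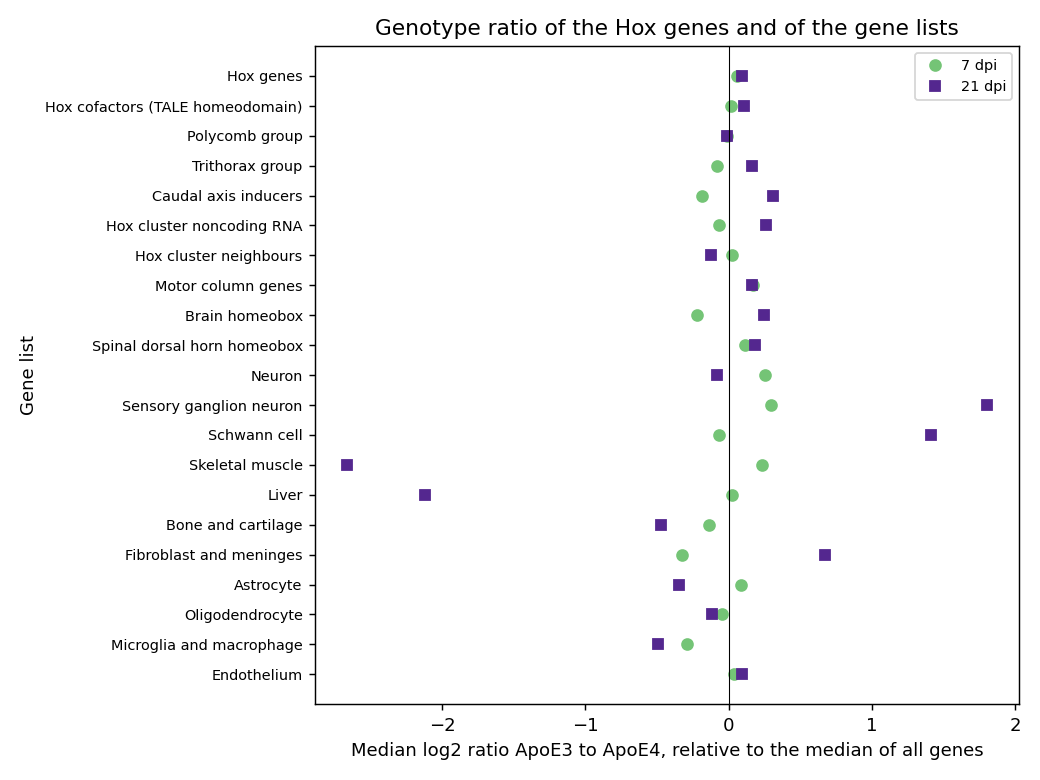
Median log2 ratio of ApoE3 to ApoE4, relative to the median of all genes (horizontal axis), for the Hox genes and 20 gene lists (vertical axis), with 7 dpi as circles and 21 dpi as squares. The Hox genes lie at 0.06 and 0.10, and the muscle list reaches -2.66 at 21 dpi. The sensory ganglion list is at 1.81 at 21 dpi, the ratio of Trpv1, which depends on the added 1 because ApoE4 was at 0. The noncoding list holds both Hotairm rows.

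The library kit does not mark strand, so reads of a Hox gene and of an antisense or overlapping transcript cannot be told apart, Hoxb5os and Hoxa11os included. In RefSeq GRCm38.p6, 9 of the 33 listed Hox genes overlap another Hox gene: Hoxa3 with Hoxa4, Hoxa5 and Hoxa6, Hoxb3 with Hoxb4, Hoxd3 with Hoxd4, and Hoxd10 with Hoxd11. The levels of these 9 genes are uncertain to that extent.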

How the data were processed

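RNA was sequenced from lesioned cord as 100 nucleotide single-end reads, down-sampled by the authors to the smallest library. The paper reports that 1 replicate aligned at a clearly lower rate than the others, and its main text does not name the group. The part of this replicate in the differences between groups was not tested. The submitters' notes name STAR 2.5.4b, Bowtie2 2.1.10, SAMtools 0.1.7 and Cuffdiff 1.3.0, and the genome build is not given in the sources used here. Per gene and group of mice the table holds 1 deposited FPKM value with 1 added, which was subtracted, and symbols on 2 rows were averaged. Read numbers behind a value, and so its counting error, are unknown. The deposited fold change, log2 fold change, p-value, q-value and significance columns, and a table of differentially expressed genes, hold the authors' own comparisons and were not used.

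Log2 ratios used a pseudocount of 1, and a fold of at least 1.3 was counted as a difference. No test was run. Centred ratios subtract the median ratio over genes whose mean FPKM reached 1. Members and the 20 gene lists were chosen with earlier results of these data known. Every listed Hox gene was printed; the rule asked for those with at least 5 FPKM in any group, of groups 10 to 13 or past the fold, and Hoxb4 was added. From each list the 2 most abundant members and up to 2 with the largest log2 ratio in any comparison were named; further ones were chosen after their values were seen. Some genes that this rule takes are not reported here. Alternatives were a pseudocount of 0.1, a minimum mean FPKM of 1, centring, folds of 1.5 and 2, genes listed at both time points, log2 weights, leaving out Hoxb8, also over genes listed at both time points, and genotypes read by column number. Python 3.11.15, numpy 2.4.6, pandas 2.3.3 and matplotlib 3.10.9 were used, and the scripts were tested on simulated data. Promoters are from RefSeq GRCm38.p6.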

Additional observations from a re-analysis of the deposited data

Results flagged for a closer look

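The genotype difference had opposite signs at the time points for the Hox genes as a whole, with a median log2 ratio of ApoE3 to ApoE4 of 0.057 at 7 dpi and -0.33 at 21 dpi. The median of all genes moved from 0.00 to -0.42 between the same groups, and centred on it the Hox medians were 0.055 and 0.095, of the same sign. For Hoxd3, the centred log2 ratio was -0.52 at 7 dpi and 0.40 at 21 dpi, at 1.49 to 3.65 FPKM; uncentred it was -0.52 and -0.02, of the same sign. With 1 value per group, neither difference between time points was tested.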

How the results depend on the processing

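With no replicates there is no spread, so a median was taken as unmoved within 0.1 on the log2 scale, a count or share within 1.5 times, and a mean paralog group within 0.5. By these limits 72 of 112 recomputed values were unmoved, and the pseudocount of 0.1 moved 0 of 12. Centring turned the Hox median at 21 dpi from -0.33 to 0.10 and moved the median of 21 to 7 dpi in ApoE4 from 0.97 to 0.44. It also moved the counts at 21 dpi from 3 to 5 higher and from 12 to 0 lower in ApoE3, and the counts lower at 21 than at 7 dpi from 0 to 1 in ApoE3 and from 0 to 2 in ApoE4; the subtracted median makes these shifts. A minimum mean FPKM of 1 left 1 gene higher in ApoE3 at 21 dpi, because Hoxb13 and Hoxc13 fall below it. A fold of 1.5 left 0 genes higher and 0 lower at 7 dpi and 5 lower at 21 dpi. A fold of 2 left 0 and 0 at 7 dpi, 0 lower at 21 dpi, and 6 and 9 genes higher at 21 than at 7 dpi in ApoE3 and ApoE4. The percent of FPKM in groups 10 to 13, in the order ApoE3 and ApoE4 at 7 dpi, then at 21 dpi, was 1.12, 1.16, 2.33 and 2.46 over genes listed at both time points, and 6.12, 5.72, 16.0 and 12.97 with log2 weights. Without Hoxb8 it was 9.01 and 8.35 at 21 dpi. The mean paralog group was 6.05, 6.09, 6.08 and 6.14 without Hoxb8, and 6.27 with log2 weights in ApoE4 at 21 dpi. Without Hoxb8 and over genes listed at both time points, an alternative added after seeing the data, it was 5.43, 5.58, 5.86 and 5.98. Reading genotypes by column number, an alternative chosen after seeing the data, turned the Hox medians to -0.057 at 7 dpi and 0.33 at 21 dpi. It exchanged the 21 dpi counts to 12 higher and 3 lower, and the medians of 21 to 7 dpi to 0.97 in ApoE3 and 0.53 in ApoE4. No paired analysis was possible because each group has 1 value. Reads per gene are not in the table, so the error of values near 0, such as those of groups 11 to 13, cannot be given.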
